A study of Mus musculus with 16 samples.

Results

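The Kv7 and EAG-family potassium channel genes Kcnq3, Kcnq5, Kcnh1, Kcnh2, Kcnh3, Kcnh4, Kcnh5 and Kcnh7 were taken by symbol, and all 8 were found among the 17293 genes of the table. They were followed in amygdala tissue of C57BL/6 mice (C57BL6/J in the study's methods) at postnatal day (PN) 28, in 16 libraries of poly(A) RNA, 1 per animal. The groups were control (CTRL) males, whose dams were left undisturbed, prenatally stressed (PS) males, whose dams met variable psychosocial stressors during pregnancy, and CTRL and PS females, with 4 libraries each. Animals of a group came from different litters. Libraries are named by the numbers of their labels, with LM17 to LM20 the CTRL males, LM21 to LM24 the CTRL females, LM25 to LM28 the PS males and LM29 to LM32 the PS females. The comparisons ask whether the RNA of these channels differed after prenatal stress in each sex, between the sexes, and between the sexes in the size of the stress difference.

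All 8 genes encode pore-forming subunits of voltage-gated potassium channels, which assemble as tetramers and let potassium leave a depolarized neuron. Kv7 subunits (Kcnq genes) carry the M-current, a slow current that does not inactivate, is active near the threshold of firing, restrains repetitive spikes and is closed by muscarinic acetylcholine receptors through phospholipase C. The EAG family (Kcnh genes) falls into EAG channels (Kv10, Kcnh1 and Kcnh5), which calcium-bound calmodulin inhibits, ERG channels (Kv11, Kcnh2 and Kcnh7), which inactivate faster than they open and pass current as the membrane repolarizes, and ELK channels (Kv12, Kcnh3 and Kcnh4), which can open below the firing threshold. In the mouse, loss of Kcnh3 is known to make hippocampal pyramidal neurons hyperexcitable.

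The deposited values summed to between 39989993 and 44275406 per library, and no library went against the sex of its label. The basolateral excitatory marker genes were present in every library, with summed levels of 2650 to 4703 CPM (a gene's value scaled to a fixed total per library). Their sum was 2673 to 3923 CPM in CTRL males and 2650 to 4072 CPM in PS males. In females it was 2880 to 3642 CPM in CTRL and 3686 to 4703 CPM in PS animals. In a dissected tissue, fewer cells of a type and less RNA per cell cannot be told apart. Markers of neighbouring tissue moved with the groups, and the summed level of 12 hippocampal genes was 740.9 to 1276 CPM in CTRL males and 1055 to 2958 CPM in PS males. In CTRL females this sum was 1306 to 1899 CPM and in PS females 452.4 to 1639 CPM. The sum of 10 oligodendrocyte genes was 266.4 to 528.9 CPM in CTRL males and 501.7 to 1047 CPM in PS males. Other lists lay lower in PS males. The sum of 10 central amygdala and intercalated genes was 64.4 to 103.0 CPM in CTRL males and 39.9 to 72.7 CPM in PS males, that of 10 striatal genes 79.95 to 168.6 and 57.2 to 113.7 CPM, that of 10 interneuron genes 1015 to 1318 and 810.8 to 1083 CPM, and that of 10 microglial genes 228.2 to 257.8 and 190.2 to 234.0 CPM. Among the markers, only Isl1, Adora2a and Pou4f1 were listed at 0 in any library.

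The members differed widely in level, from Kcnq5 and Kcnh3 to the scarce Kcnh4 and Kcnh5. Per kilobase of annotated exon, the mean level over the 16 libraries was 19.98 CPM per kb for Kcnq5, whose product joins M-current channels, and 19.3 CPM per kb for the ELK gene Kcnh3. These leading genes were not ordered beyond their spread, since Kcnq5 was the higher in 6 of 16 libraries. The next were the EAG gene Kcnh1 with 6.50 and the Kv7 gene Kcnq3 with 4.72 CPM per kb, followed by the ERG genes Kcnh2 with 2.50 and Kcnh7 with 1.67 CPM per kb. The lowest were the ELK gene Kcnh4 with 0.618 and the EAG gene Kcnh5 with 0.524 CPM per kb, and Kcnh4 exceeded Kcnh5 in 12 of 16 libraries. The other neighbours in this order kept it in 16 of 16 libraries. Within each subfamily, one gene thus led, and the ELK pair was the most unequal, with a Kcnh3 level per kb that was on average 34.4 times that of Kcnh4. Scaled to the longest coding transcript in place of all annotated exons, Kcnh3 came first with 30.1 and Kcnq5 next with 22.02 CPM per kb, and the rest of the order was the same.

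The genes lie on 6 chromosomes of the mm10 genome (GENCODE M21 annotation). Kcnq5 spans chr1:21398403-21961942 and Kcnh1 chr1:192190774-192510159, while Kcnq3 spans chr15:65986387-66286642 and Kcnh3 chr15:99224861-99242817. Kcnh4 spans chr11:100740376-100759942, Kcnh2 chr5:24319589-24351604, Kcnh5 chr12:74897220-75177332 and Kcnh7 chr2:62693414-63184287. Exons of 3 members overlap a gene on the other strand. The overlap covers 696 bases or 4.57% of the exons of Kcnh7 with Gca (mean level 9.53 CPM), 237 bases of Kcnq5 with Gm26580 and 1 base of Kcnh3 with Mcrs1. The libraries were directional, but the strand setting of the counting is not given in the sources used here, so reads in the shared stretches cannot be assigned with certainty.

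RefSeq promoter windows of 300 bases (build GRCm38.p6, from 250 bases before to 50 bases after a start) matched 6 of the 8 members. The window of Kcnh4 and, of the 2 windows of Kcnq5, the one at the annotated gene start are shown because these genes lay in opposite directions in PS males, with the largest distance between them of any pair. Capitals mark matches to the motifs searched for.
Kcnh4 promoter, chr11:100759729-100760028, minus strand: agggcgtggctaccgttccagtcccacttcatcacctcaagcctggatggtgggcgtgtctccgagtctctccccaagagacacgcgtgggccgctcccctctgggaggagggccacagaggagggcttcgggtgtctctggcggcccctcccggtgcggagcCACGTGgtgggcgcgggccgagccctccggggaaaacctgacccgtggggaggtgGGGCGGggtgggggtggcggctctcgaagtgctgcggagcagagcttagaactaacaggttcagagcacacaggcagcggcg
Kcnq5 promoter, chr1:21961893-21962192, minus strand: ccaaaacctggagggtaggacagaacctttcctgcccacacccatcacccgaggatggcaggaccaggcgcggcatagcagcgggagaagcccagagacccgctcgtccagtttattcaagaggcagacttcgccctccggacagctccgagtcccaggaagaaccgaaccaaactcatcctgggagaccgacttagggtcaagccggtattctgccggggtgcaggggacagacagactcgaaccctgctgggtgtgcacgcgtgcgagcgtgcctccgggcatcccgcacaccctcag
The motifs, searched on both strands, were the GC box (GGGCGG, in 35.66% of 32851 windows), the glucocorticoid receptor motif (AGAACA, 18.97%), the E box (CACGTG, 7.15%), the cAMP response element (TGACGTCA, 1.79%) and the TATA box (TATAAA, 13.62%). The Kcnh4 window held 1 GC box and 1 E box, which did not overlap, and neither Kcnq5 window held a match. The GC content was 68.67% for the Kcnh4 window and 62.67% for the Kcnq5 window shown, and 46.0% for the second Kcnq5 window, beside a median of 52.67% over all windows. A match says only that these letters are in the window.

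In PS males against CTRL males, 5 of 8 members had libraries that did not overlap between the groups, with Kcnq5 higher and Kcnq3, Kcnh1, Kcnh3 and Kcnh4 lower in PS males. Over all 14309 genes tested, 23.9% did not overlap in the same way. None of the 8 passed limma at an adjusted p under 0.05, where 3.44% of all genes did, and 6 of 8 had an unadjusted p under 0.05, as did 3676 of the 14309 genes. Of all genes, 126 were higher and 366 lower in PS males, a split that became 280 higher and 253 lower when the CPM were not scaled further. These counts also rested on single libraries, and ran from 9 higher and 40 lower without LM18 to 555 and 874 without LM32, staying within 1.5 times of the total only without LM22, LM26 or LM28. The members are therefore given by their values, in the order of their subfamilies.

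**Figure D1:**
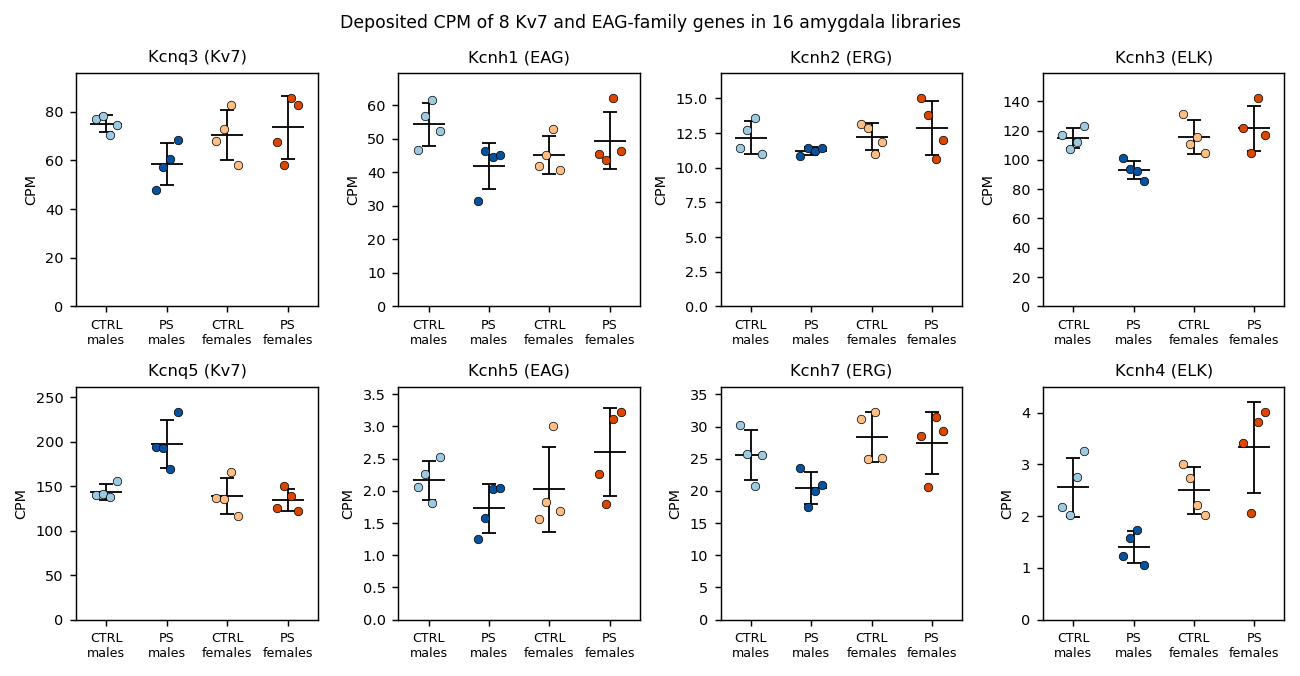
CPM (vertical axes, from 0) of the 8 members in each of the 4 groups, 1 point per library, with the mean (wide bar) and SD (whiskers) of 4 libraries, and 1 column of panels per subfamily. The PS males sit above the CTRL males for Kcnq5 (169.0 to 234.1 against 137.5 to 156.5 CPM) and below them for Kcnh4 (1.06 to 1.73 against 2.02 to 3.25 CPM).

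The Kv7 genes lay in opposite directions. Kcnq5 was at 139.7, 140.9, 137.5 and 156.5 CPM in CTRL males LM17 to LM20 and at 194.3, 193.4, 169.0 and 234.1 CPM in PS males LM25 to LM28. All 4 PS males were above all 4 CTRL males, with LM28 the highest of the 16 libraries. The log2 difference was 0.39 (SE 0.13, 95% interval 0.12 to 0.66), with an adjusted p = 0.0838 by limma. Kcnq3, whose product is a subunit of M-current channels, was at 76.9, 78.3, 70.4 and 74.7 CPM in CTRL males and at 47.7, 57.2, 60.7 and 68.4 CPM in PS males. The uppermost PS male library was below the lowest CTRL male library, and PS males were the more scattered, with an SD of 8.58 CPM against 3.44 CPM. The log2 difference was -0.43 (SE 0.15, 95% interval -0.76 to -0.10, limma adjusted p = 0.112).

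The ELK genes lay lower in PS males. Kcnh4 was at 2.18, 2.02, 2.76 and 3.25 CPM in CTRL males and at 1.23, 1.58, 1.73 and 1.06 CPM in PS males. It had the largest size of difference among the 8 members, -0.73 on the log2 scale (SE 0.20, 95% interval -1.16 to -0.29), with a limma adjusted p = 0.0628. Since 0.5 was added before taking logarithms, this understates the ratio of the group means, 1.40 ± 0.308 against 2.55 ± 0.564 CPM (SD, n = 4). Kcnh3 was at 116.8, 107.1, 111.9 and 123.4 CPM in CTRL males and at 101.0, 93.8, 92.1 and 85.8 CPM in PS males, a log2 difference of -0.36 (SE 0.10, 95% interval -0.58 to -0.14, limma adjusted p = 0.0665). For both genes the lowest PS male was LM28, the library with the highest Kcnq5 level. The study called Kcnh4 lower in PS males by its own test and also found it lower by qPCR. It listed Kcnh5 only among genes higher in PS females than in PS males. Both genes were picked from these same samples, so their direction here is not independent evidence.

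Of the EAG genes, Kcnh1 was at 46.5, 56.6, 61.5 and 52.3 CPM in CTRL males and at 31.4, 46.3, 44.4 and 45.1 CPM in PS males. LM25 lay far below the other PS males, and LM17 and LM26 all but met. The log2 difference was -0.44 (SE 0.16, limma adjusted p = 0.108). The second EAG gene, Kcnh5, ran from 1.81 to 2.52 CPM in CTRL males and from 1.25 to 2.05 CPM in PS males, with overlapping groups and a log2 difference of -0.31 (SE 0.21, 95% interval -0.77 to 0.14).

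The ERG genes overlapped between the groups. Kcnh2, which also encodes the main rapid repolarizing current of the heart, ran from 10.96 to 13.6 CPM in CTRL males and only from 10.83 to 11.45 CPM in PS males. Its log2 difference was -0.16 (SE 0.09, 95% interval -0.36 to 0.03), the smallest of the 8. Kcnh7 ran from 20.8 to 30.3 CPM in CTRL males and from 17.5 to 23.5 CPM in PS males, a log2 difference of -0.37 (SE 0.16, 95% interval -0.71 to -0.02, limma adjusted p = 0.169). As a group, 7 of the 8 members were below 0 and 1 above, with a median of -0.36 on the log2 scale beside 0.01 over all genes tested, and a median size of 0.38 beside 0.11. The members were chosen with earlier results of these data known, so these medians are descriptions and not independent evidence. Of 6 other Kv7, EAG and KCNE subunits tested, 3 were above 0 and 3 below, with a median of -0.04 and a median size of 0.12.

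The calls in males depended on the fit. With only the groups compared in the model, Kcnq3, Kcnq5, Kcnh3 and Kcnh4 passed (4 of 8), and with the removed factors not kept in the model Kcnq5, Kcnh3 and Kcnh4 did (3 of 8). Over all 14309 genes, the first of these fits called 769 higher and 1132 lower, and the second 660 and 1027. The main fit called 126 and 366. The first left 6 residual degrees of freedom, beside 10 in the main fit. Kcnh4 also passed without LM17, LM21, LM23, LM24, LM27, LM30, LM31 or LM32, each left out alone, and its adjusted p by limma ran from 0.0228 to 0.231 over 26 alternatives. Over all genes, those leave-out fits called from 273 higher and 532 lower (without LM27) to 555 and 874 (without LM32).

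The hippocampal marker sums were 2418 CPM in LM25 and 2958 CPM in LM28, and 1116 and 1055 CPM in LM26 and LM27, of which only the latter pair lay within the range of CTRL males. With LM26 and LM27 as the only PS males, the log2 difference was 0.26 for Kcnq5, -0.42 for Kcnq3, -0.32 for Kcnh1, -0.37 for Kcnh3 and -0.54 for Kcnh4. Their adjusted p by limma then ran from 0.146 to 0.3003, and no gene of 14260 passed in that fit. LM28 also held the highest oligodendrocyte sum, 1047 CPM. CTRL females had hippocampal sums of 1306 to 1899 CPM. The same members were there at 116.3 to 165.7 CPM for Kcnq5, 58.1 to 82.7 for Kcnq3 and 40.6 to 53.0 for Kcnh1. Kcnh3 was at 104.8 to 131.3 and Kcnh4 at 2.03 to 3.01 CPM. By limma, none of the 12 hippocampal or 10 oligodendrocyte genes passed in PS males against CTRL males, though all were above 0, and 5 and 1 had an unadjusted p under 0.05. The markers that fell were Tshz1 of the central amygdala and intercalated list (-0.62 on the log2 scale, adjusted p = 0.0470 by limma), Lmo3 of the basolateral list (-0.93, adjusted p = 0.0437), and Itgam and Cx3cr1 of the microglia (-0.43 and -0.39, adjusted p = 0.0432 and 0.0437). Of the tested genes, 6 of 8 central amygdala and intercalated, 7 of 7 striatal, 9 of 10 interneuron and 10 of 10 microglial genes were below 0. The basolateral list was mixed, with 6 of 10 genes below 0, a median of -0.07 and sums that overlapped between the groups. The part of these cell types' RNA in the differences of the members was not tested.

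**Figure D2:**
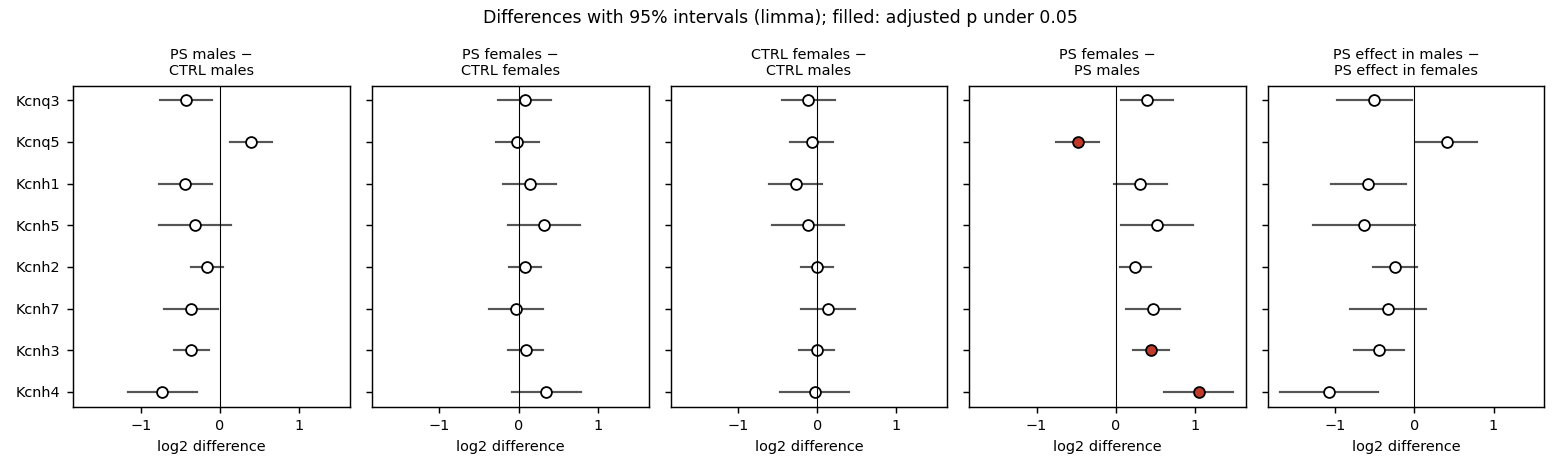
log2 differences (horizontal axes) of the 8 members in 5 comparisons with their 95% intervals from limma, filled where the adjusted p was under 0.05. Only Kcnq5 (-0.48), Kcnh3 (0.45) and Kcnh4 (1.05) between PS females and PS males are filled, and in females every interval of PS against CTRL spans 0.

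In PS females against CTRL females, no member differed beyond the spread between libraries. None of the 8 passed limma and none had an unadjusted p under 0.05, as 0% of the 14236 genes tested passed and 1806 had an unadjusted p under 0.05. No member had groups that did not overlap, beside 7.45% of all genes. Kcnq5 was at 137.1, 135.5, 165.7 and 116.3 CPM in CTRL females LM21 to LM24 and at 125.9, 150.4, 138.9 and 122.6 CPM in PS females LM29 to LM32, so that each group held libraries above and below the other. The log2 difference was -0.02 (95% interval -0.29 to 0.25). Kcnh4 was at 3.01, 2.74, 2.22 and 2.03 CPM in CTRL females and at 3.41, 2.06, 3.81 and 4.02 CPM in PS females. In 3 of 4 PS females it was above every CTRL female, and LM30 was apart from them at the level of the lowest CTRL female, which left a log2 difference of 0.35 (SE 0.20, 95% interval -0.09 to 0.78). Kcnh5 had a log2 difference of 0.32 (SE 0.21, 95% interval -0.13 to 0.78), and the other 6 members lay between -0.03 and 0.14. 

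Between CTRL females and CTRL males, likewise, 0 of 8 members passed limma (0.0702% of 14244 genes did, and 789 had an unadjusted p under 0.05), and none of the members had an unadjusted p under 0.05. No member's groups failed to overlap, beside 4.23% of all genes. The largest size was that of Kcnh1, with 45.1 ± 5.56 CPM in CTRL females against 54.2 ± 6.38 CPM in CTRL males (SD, n = 4), a log2 difference of -0.27 (SE 0.16, 95% interval -0.61 to 0.06). The others lay between -0.11 and 0.14, and Kcnh2 and Kcnh3 differed by 0.00 on the log2 scale, with 95% intervals of -0.20 to 0.20 and -0.23 to 0.22.

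The sexes differed after prenatal stress for 3 members. In PS females against PS males, Kcnh3 and Kcnh4 were higher and Kcnq5 was lower in females by limma, 3 of 8 members beside 13.1% of all 14316 genes. The groups did not overlap for the same 3 members, beside 23.7% of all genes. Kcnh4 was at 2.06 to 4.02 CPM in the 4 PS females and at 1.06 to 1.73 CPM in the 4 PS males, so that even LM30 was above every PS male. Its log2 difference was 1.05 (SE 0.20, 95% interval 0.61 to 1.48, adjusted p = 0.0125 by limma). Kcnh3 was at 122.1, 104.8, 142.1 and 117.0 CPM in PS females and at 85.8 to 101.0 CPM in PS males, a log2 difference of 0.45 (SE 0.10, 95% interval 0.22 to 0.67, adjusted p = 0.0191). Both ELK calls held in all 26 alternatives, with adjusted p by limma from 0.00571 to 0.0333 for Kcnh3 and from 0.00173 to 0.0302 for Kcnh4.

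Kcnq5 was lower in PS females, at 122.6 to 150.4 CPM against 169.0 to 234.1 CPM in PS males, a log2 difference of -0.48 (SE 0.13, 95% interval -0.75 to -0.21, adjusted p = 0.0282 by limma). This call was lost without LM32, and with LM26 and LM27 as the only PS males, where the log2 difference was -0.35 (adjusted p = 0.0935 by limma), and it held in the other 24 of 26 alternatives. The other 5 members had positive values that did not pass. Kcnh7 came nearest with 0.47 (SE 0.16, limma adjusted p = 0.0628) and passed in 7 of 26 alternatives. Kcnh5 had 0.52 (SE 0.21), Kcnq3 0.39 (SE 0.15), Kcnh1 0.31 (SE 0.16) and Kcnh2 0.25 (SE 0.09) on the log2 scale. Without LM30, 6 of 8 passed, with Kcnq3, Kcnh5 and Kcnh7 added. In that fit, 1533 of all 14309 genes were higher and 1126 lower. LM30 had the lowest level of Kcnq3, Kcnh1, Kcnh3, Kcnh4, Kcnh5 and Kcnh7 among the PS females and the highest hippocampal sum among them, 1639 CPM. Of all genes, 1085 were higher and 792 lower in PS females, which became 739 and 1661 when the CPM were not scaled further, where the same 3 members passed, and 693 and 414 without LM32.

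The hippocampal list moved with this comparison too, with 12 of 12 genes below 0, 2 of them past the test (Cabp7 and Zbtb20), and a median log2 difference of -0.84, and so did the oligodendrocyte list, with 10 of 10 genes below 0 and a median of -1.10. Of the other marker lists, Lmo3 (basolateral), Sst and Npy (interneurons) and Itgam and Cx3cr1 (microglia) were higher in PS females by limma, and Ebf1 (central amygdala and intercalated), Tcf7l2 (thalamus and habenula) and Gja1 and Gjb6 (astrocytes) were lower. Of the basolateral genes tested, 8 of 10 were above 0, with a median of 0.43 on the log2 scale. Of the central amygdala and intercalated genes, 6 of 7 were above 0 (median 0.23), with only Ebf1 below. Also above 0 were 6 of 7 striatal, 7 of 10 interneuron and 10 of 10 microglial genes. Below 0 were 6 of 8 thalamic and habenular, 8 of 10 astrocyte and 6 of 8 vessel and blood genes. The part of these cell types' RNA in the ELK and Kcnq5 differences was not tested.

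Whether the stress difference itself differed between males and females was tested as an interaction, using all 4 groups. None of the 8 members passed limma, beside 4.11% of 14392 genes, while 5 of 8 had an unadjusted p under 0.05, as did 3546 of all genes. The number of all genes called ran from 29 higher and 89 lower without LM24 to 535 and 953 without LM30. Kcnh4 was at the threshold, with a difference of differences of -1.08 on the log2 scale (SE 0.29, 95% interval -1.69 to -0.46, adjusted p = 0.0506 by limma). It passed in 13 of 25 alternatives, over which the adjusted p by limma ran from 0.0116 to 0.0830. Kcnh3 had -0.45 (SE 0.15, limma adjusted p = 0.0867) and passed in 3 of 25. Kcnq5 had 0.41 (SE 0.18, limma adjusted p = 0.179), Kcnh1 -0.58 (SE 0.22, limma adjusted p = 0.129) and Kcnq3 -0.50 (SE 0.22, limma adjusted p = 0.175), none of which passed in any alternative. For these genes, then, a difference between the sexes in the response was not shown at 4 libraries per group. The comparisons share groups, so PS males enter both the comparison with CTRL males and that with PS females, and the values stand side by side without an overlap test.

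The balance among the members was shifted in PS males while their sums overlapped between the groups. The 8 levels per kb summed to 56.5 ± 1.94 CPM per kb in CTRL males, 56.0 ± 3.37 in PS males, 54.6 ± 5.27 in CTRL females and 56.3 ± 4.59 in PS females (SD, n = 4). Of this sum, Kcnq5 made up 32.04% to 34.3% in CTRL males and 41.7% to 50.2% in PS males, and Kcnh3 made up 33.6% to 36.6% and 24.6% to 32.1%. In females, Kcnq5 made up 31.3% to 35.8% in CTRL and 28.7% to 37.0% in PS animals, so the PS males stood above all other 12 libraries. Kcnh4 made up 0.923% to 1.38% of the sum in CTRL males and 0.442% to 0.828% in PS males.

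**Figure D3:**
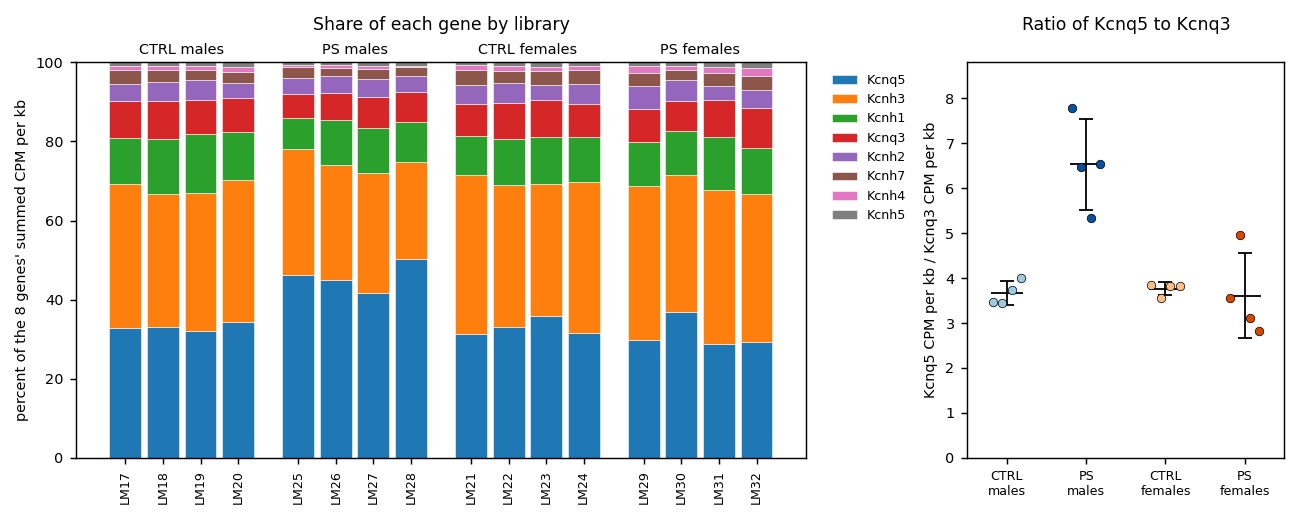
Left, the percent that each member made up of the summed CPM per kb of the 8 members, 1 bar per library. Right, the ratio of Kcnq5 to Kcnq3 CPM per kb by library with mean and SD of 4, which was 5.33 to 7.79 in PS males and at most 4.95 in any other library.

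The ratio between the Kv7 genes showed the same shift. Kcnq5 per kb was 3.66 ± 0.263 times Kcnq3 per kb in CTRL males and 6.53 ± 1.005 times in PS males (SD, n = 4), with ranges of 3.44 to 4.01 and 5.33 to 7.79. It was 3.77 ± 0.139 in CTRL females and 3.61 ± 0.941 in PS females, where LM30 had the highest value, 4.95. Per kb of all annotated exons, the ratio of Kcnq5 to Kcnh3 was 0.895 to 0.985 in CTRL males and 1.37 to 2.04 in PS males. Where these values lie relative to 1 depends on the length measure. Per kb of the longest coding transcript, the mean over all libraries was 22.02 CPM for Kcnq5 and 30.1 CPM for Kcnh3. The ratios restate the levels above and were not tested apart from them.

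Within groups, the members did not vary as 1 block. Over the 16 libraries, after the group means were taken off, Pearson's r between pairs of members ran from -0.62 to 0.88, with 5 of 28 pairs above 0.5 and 2 below -0.5. The closest pair was Kcnq3 and Kcnh5 (r = 0.88), followed by Kcnq3 and Kcnh1 (r = 0.68), and the ELK genes Kcnh3 and Kcnh4 varied together (r = 0.64). Kcnq5 was near 0 with Kcnh3 (r = 0.02) and negative with Kcnh4 (r = -0.33), and the Kv7 genes had r = 0.32 with each other. Kcnh2 was negative with every other member and lowest with Kcnh5 (r = -0.62). The points share libraries, dissections and the removal of factors by the authors, so these values are descriptions.

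**Figure D4:**
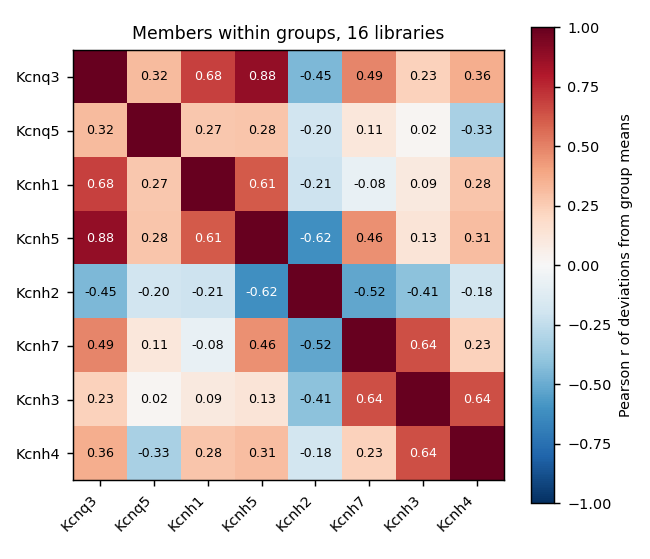
Pearson's r between the log2 levels of each pair of members over 16 libraries after subtracting the group means, from -1 (blue) to 1 (red). Kcnq3 and Kcnh5 form the highest value (0.88), and the row of Kcnh2 is negative throughout, down to -0.62 with Kcnh5.

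For the called members, the genes with the most alike pattern within groups were sought among 11020 genes with a mean level above 5 CPM. Kcnh4 was closest to Pde2a (r = 0.934), which encodes a phosphodiesterase that degrades cyclic nucleotides, then to Gucy1a3 (r = 0.926), a subunit of the nitric oxide receptor guanylate cyclase, Cntnap5a (0.909), Arhgap10 (0.897) and Arpp19 (0.885). Kcnh3 was closest to Dock3 (r = 0.953), a guanine nucleotide exchange factor of neurons, then to Ttc7b (0.896), Plxnd1 (0.891), Vopp1 (0.884) and Gpr26 (0.882). Kcnq5 was closest to Lsm11 (r = 0.882), a component of the histone RNA processing machinery, then to Srgap3 (0.847), Mast2 (0.833), Tacc2 (0.831) and Elac2 (0.826). Over all libraries, with the group differences left in, Pde2a stayed close to Kcnh4 (r = 0.973) and Dock3 to Kcnh3 (r = 0.965), while Mast2 did not stay close to Kcnq5 (r = -0.24). Because the genes were picked as the highest of 11020 values, the search itself raises their r within groups. These likenesses are descriptions, and what they would mean was not tested.

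Of other subunits that can join or accompany these channels, Kcnq1 and Kcne5 passed limma in no comparison, nor did either have an unadjusted p under 0.05. In PS males against CTRL males, Kcnq1, better known from heart and epithelia, had a log2 difference of -0.15 (SE 0.18), and Kcne5, an accessory subunit listed under its older symbol Kcne1l, had 0.25 (SE 0.16). Kcne2 was listed at 0 in all 16 libraries. Kcnh8, the remaining ELK gene, had at most 0.191 CPM in a library.

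Of 22 partners and regulators of these channels, 1 rose and 1 fell in PS males. Plcb4, a phospholipase C isoform that splits the membrane lipid Kv7 channels need, was at 4.64, 4.21, 4.39 and 4.33 CPM in CTRL males and at 6.41, 6.61, 6.53 and 6.22 CPM in PS males, a log2 difference of 0.45 (SE 0.07, adjusted p = 0.0226 by limma). Akap5, which anchors protein kinases at Kv7 channels and at synapses, was at 187.3 to 214.8 CPM in CTRL males and at 127.8 to 160.9 CPM in PS males, a log2 difference of -0.54 (SE 0.12, adjusted p = 0.0436 by limma). Neither gene's groups overlapped. Both also passed the interaction test, with 0.50 for Plcb4 (adjusted p = 0.0376 by limma) and -0.76 for Akap5 (adjusted p = 0.0446 by limma). The gene with the next smallest p was Cask, a scaffold and kinase of the synapse, with -0.20 (SE 0.07, limma adjusted p = 0.0938). The median over the list was -0.11 on the log2 scale, beside 0.01 over all genes tested.

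In PS females against PS males, 3 of the 22 were higher and 2 lower by limma. Akap5 was higher (0.50 on the log2 scale, adjusted p = 0.0212), as were Chrm1, the muscarinic receptor that closes M-channels (0.39, adjusted p = 0.0350), and Camk2a, a subunit of a calmodulin-dependent kinase (0.56, adjusted p = 0.0438). Plcb4 was lower (-0.31, adjusted p = 0.0175), as was Csnk2a1, a catalytic subunit of casein kinase II, which acts on the ankyrin anchor of Kv7 channels (-0.18, adjusted p = 0.0261). None of the 22 passed limma in PS females against CTRL females or between the CTRL groups, where 2 and 1 had an unadjusted p under 0.05.

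Among 72 further genes whose symbols start with Kcn, 63 were tested in males, of which 1 rose and 8 fell by limma. The risen gene was Kcnn2, a calcium-activated channel subunit (0.58 on the log2 scale, adjusted p = 0.0437). Those that fell were Kcna3 (-0.57, adjusted p = 0.0248), Kcnf1 (-0.65), Kcng1 (-0.53), Kcnj4 (-0.50), Kcnk9 (-0.57), Kcnt1 (-0.46), Kcnu1 (-0.34) and Kcnv1 (-0.86), the largest adjusted p being 0.0456. Kcnf1, Kcng1 and Kcnv1 encode modifier subunits that form no channel alone, Kcnj4 an inward rectifier, Kcnk9 a leak channel and Kcnt1 a sodium-activated channel. Kcna3, Kcnf1, Kcng1, Kcnj4, Kcnk9 and Kcnv1 were, like Kcnh4 and Kcnh5, picked by the study from these samples, so their direction is not independent evidence. The median of the 63 was -0.03 with a median size of 0.20 beside 0.38 for the 8 members, which were chosen with earlier results known. With LM26 and LM27 as the only PS males, no gene of all 14260 passed, these calls included. A fit in which no gene passes cannot show whether these calls depended on LM25 and LM28.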

How the data were processed

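Poly(A) RNA of dissected PN28 amygdala was sequenced from 16 mice. Per the paper's methods, the authors aligned single reads to mm10 with STAR, counted unique reads per gene with featureCounts and estimated unwanted variation with RUVs for edgeR. Versions are not given in the sources used here. The deposited table holds, per gene and library, a corrected value, handled here as a score rather than a count because 2 of 12 within-group directions are missing (the 10th singular value is 6.08 and the 11th and 12th are 0.191 and 0.09), and a CPM column that the authors derived from it. A further 12 columns hold the authors' fold changes, p-values and FDR and were not used. No counting interval is given, because the values are corrected, so precision rests on the 4 libraries of each group.

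CPM were divided by TMM factors (0.95 to 1.05), raised by 0.5 and put on the log2 scale for a fit with limma 3.58.1 in R 4.3.3 with a mean trend. The model had 1 mean per group and the 2 removed directions as covariates, leaving 10 residual degrees of freedom. The test covered genes whose mean CPM exceeded 0.5 in a compared group, with Benjamini-Hochberg adjustment across all such genes and calls at 0.05. The fit was tested on simulated data in which the genes varied independently of each other. That test cannot speak to spread that many genes share. The 4 animals of a group came from different litters.

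The members and gene lists were chosen with earlier results of these data known. The genes named outside the members were those past the test, up to 3 with the smallest p in PS males, and the 5 most alike to each called member. Alternatives covered scaling, the value added, the filter, the variance prior, the covariates, the samples in the model and each library left out. The use of LM26 and LM27 alone and the transcript length were chosen after seeing the data. Plots were drawn with matplotlib 3.10.9. One gene of the lists is not reported here.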

Additional observations from a re-analysis of the deposited data

Results flagged for a closer look

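Of 32 groups of 4 libraries (8 members in 4 groups), 2 held a library far from the other 3, and chance flags about 5% of groups. Both concerned Kcnh1. PS male LM25 had 31.4 CPM, the lowest of its group, where the others had 44.4 to 46.3 CPM. PS female LM31 had 62.0 CPM, the highest of its group, where the others had 43.8 to 46.4 CPM. Without LM25, the Kcnh1 difference of PS against CTRL males was -0.31 on the log2 scale in place of -0.44 and did not pass limma in either case.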

How the results depend on the processing

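Over 25 or 26 alternatives, no member of the 8 changed sign in PS males against CTRL males, in PS females against PS males or in the interaction. The number of members called in PS males was 0, and it was 1 with the CPM not scaled further (Kcnq5), 3 with the removed factors not kept in the model, 4 with only the groups compared and 0 to 3 with each library left out in turn. Of all 14309 genes, 660 were higher and 1027 lower with the removed factors not kept, and 769 and 1132 with only the groups compared. Between PS females and PS males 3 were called, 5 with the removed factors not kept and 2 to 6 with each library left out. With the removed factors not kept, 1709 of all 14316 genes were higher and 1472 lower in this comparison. In the interaction 0 were called, 1 (Kcnh4) with corrected values in place of CPM, with 0.1 added or with a mean CPM above 1, 2 (Kcnh3 and Kcnh4) with the removed factors not kept, and 0 to 2 with each library left out. With the removed factors not kept, 698 of all 14392 genes were higher and 1022 lower in the interaction. Leaving out a library leaves 1 of the 2 removed directions in the model, and the cause of the other shifts was not tested.

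Sign changes were seen only where values were under 0.10 and uncalled. In CTRL females against CTRL males, Kcnh2 was 0.0091 and Kcnh3 0.0057 with the CPM not scaled further, and 0.0079 and 0.0041 with corrected values. With each library left out, this comparison ran from -0.17 to 0.027 for Kcnq5, from -0.040 to 0.050 for Kcnh2, from -0.069 to 0.058 for Kcnh3 and from -0.12 to 0.083 for Kcnh4. PS females against CTRL females ran from -0.029 to 0.20 for Kcnq3, from -0.11 to 0.086 for Kcnq5, from -0.0038 to 0.17 for Kcnh3 and from -0.12 to 0.11 for Kcnh7. No paired analysis was possible because the groups share no replicate numbers. With 4 libraries per group and corrected values, smaller differences than those called may have been missed.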
